A study of Mus musculus with 12 samples.

Results

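The enzymes of glycolysis and glycogen metabolism were examined in mouse hearts as 35 genes out of the 19308 in the count table. They were taken by their symbols and not by a cut on any measured value, though earlier results of these data were known. They comprised 18 genes of the glycolytic steps from hexokinase to lactate dehydrogenase, 2 lactate transporters, 6 genes of glycogen synthesis and 9 genes of glycogen breakdown. RNA was sequenced from 12 whole hearts of C57BL/6 mice, where WT and F3-KO animals each had either sham or TAC surgery, giving 4 groups of 3 hearts. Transverse aortic constriction (TAC) narrows the aortic arch and loads the left ventricle with pressure, and sham is the operation without the constriction. Surgery was done at 8 weeks of age and hearts were taken 1 week later. F3-KO mice carry a global, CRISPR-Cas9 made deletion of *Fabp3*, the heart fatty acid-binding protein, so that effects within the cardiomyocyte cannot be told apart from effects of other cells and organs.

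Glycolysis splits glucose into pyruvate in the cytosol, and lactate dehydrogenase interconverts pyruvate and lactate, which monocarboxylate transporters carry across the cell membrane. Glycogen is the branched glucose store of muscle: UDP-glucose made from glucose 1-phosphate is added to it by glycogen synthase, and phosphorylase, switched on by phosphorylase kinase, releases glucose 1-phosphate again. The adult heart burns mostly fatty acids, and a loaded or fetal heart is known for a larger use of glucose. Many of these steps have a muscle isoform and a ubiquitous, brain or liver isoform, and the ratio between both is a readout of its own.

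Total counts ran from 10424289 to 14371981 per heart, and 3 counts correspond to 0.209 to 0.288 CPM (counts-per-million). *Fabp3* stood at 2117 to 3064 CPM in WT hearts and at 1002 to 1143 CPM in F3-KO hearts, and was lower in F3-KO hearts after both operations (edgeR's quasi-likelihood test, adjusted p = 0.00784 in sham and 0.00146 in TAC hearts), so reads of the deleted gene were still counted in F3-KO hearts. *Nppb*, a gene of wall stress, rose with TAC over both genotypes (log2 fold change 1.86, adjusted p = 0.0105, edgeR). *Nppa*, a further check, stood at 37.1 to 339 CPM in sham hearts and at 143 to 3841 CPM in TAC hearts, with overlap. WT TAC replicate 2 (143 CPM) and F3-KO TAC replicate 1 (153 CPM) lay within the sham range. *Myh7*, the slow myosin of the fetal ventricle, stood at 289.7 to 9179 CPM in sham hearts, highest in WT sham replicate 2, and at 174.3 to 23126 CPM in TAC hearts, with overlap. Cardiomyocyte markers were abundant in every heart, while of the hepatocyte markers *Alb* was at 0 in 9 hearts, at 0.0824 CPM in F3-KO TAC replicate 1 and at 58.9 and 86.4 CPM in F3-KO TAC replicates 2 and 3. Fibroblast markers summed to 3390 CPM in WT TAC replicate 1 and to 4420 and 7810 CPM in F3-KO TAC replicates 1 and 2, against 737 to 1620 CPM in the other 9 hearts. Proliferation markers, such as *Mki67*, summed to 2.42 CPM in WT TAC replicate 3 and to 3.02 CPM in F3-KO TAC replicate 3. Their sums were 20.5 to 231 CPM in the other TAC hearts and 3.34 to 12.9 CPM in sham hearts. *Myh7* was highest in these same replicates 3, at 21580 and 23126 CPM, so each TAC group held unlike hearts. In whole hearts, fewer cells of a type and less RNA per cell cannot be told apart.

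Muscle or heart isoforms stood highest at many steps, when levels were compared per kilobase of transcript. Hexokinase was split, and *Phkg2* stood above *Phkg1*, the muscle form of the same phosphorylase kinase subunit, in every group mean. *Aldoa*, the aldolase of muscle, stood highest with a mean over 12 hearts of 2214 CPM per kilobase, followed by *Gapdh* at 2058, and by *Ldhb*, the heart-type lactate dehydrogenase, at 1294 CPM per kilobase. The muscle mutase *Pgam2* stood at 776.6, the muscle enolase *Eno3* at 734.1 and the muscle phosphorylase *Pygm* at 513.2 CPM per kilobase. At the lower end, the lactate exporter *Slc16a3* reached 0.8295 CPM per kilobase, and the brain aldolase *Aldoc*, with at most 7 counts in a heart, was the only gene of the 35 that fell below the filter on low counts and was not tested.

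**Figure D1:**
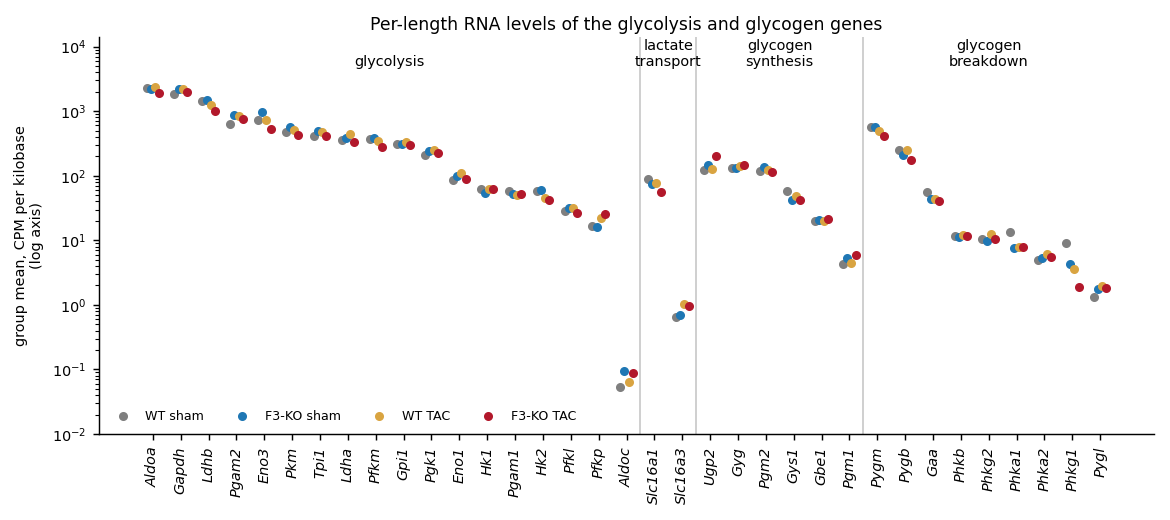
Group mean level of each of the 35 genes in CPM per kilobase of its principal transcript, on a log axis, with 1 point for each of the 4 groups and genes ordered by level within their part of the pathway. *Aldoa* and *Gapdh* lie highest and *Aldoc* lowest, and the 4 groups lie close together for most genes but spread for *Phkg1* and *Phka1*.

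The isoform make-up of each step was read as each gene's share of the summed per-length level of its step. *Pfkm*, the muscle phosphofructokinase, held 89.0% ± 0.434 (SD, n = 3) of its step in WT sham hearts and 84.1% ± 4.95 in F3-KO TAC hearts. *Pgam2* held between 91.5% and 94.4% of the mutase step as group means. Hexokinase was split more evenly, with *Hk1*, the ubiquitous form, at 51.4% ± 4.59 in WT sham, 59.8% ± 9.97 in WT TAC, 47% ± 6.3 in F3-KO sham and 59% ± 7.46 in F3-KO TAC hearts, and *Hk2*, the insulin-responsive muscle form, making up the rest.

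Glycogen phosphorylase was mixed in the same way. *Pygm* held group means of 66.5% to 72.6% and the brain form *Pygb* 27.2% to 33.2%, while the liver form *Pygl* stayed at or below 0.319%. Of the phosphoglucomutases, which interconvert glucose 1-phosphate and glucose 6-phosphate, the gene listed as *Pgm2* (gene identifier 72157, called Pgm1 in RefSeq) held 94.8% to 96.4% and the gene listed as *Pgm1* (gene identifier 66681) the remainder. *Slc16a1*, the widespread lactate and pyruvate carrier, held 98.2% to 99.3% of the sum of both transporters as group means.

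**Figure D2:**
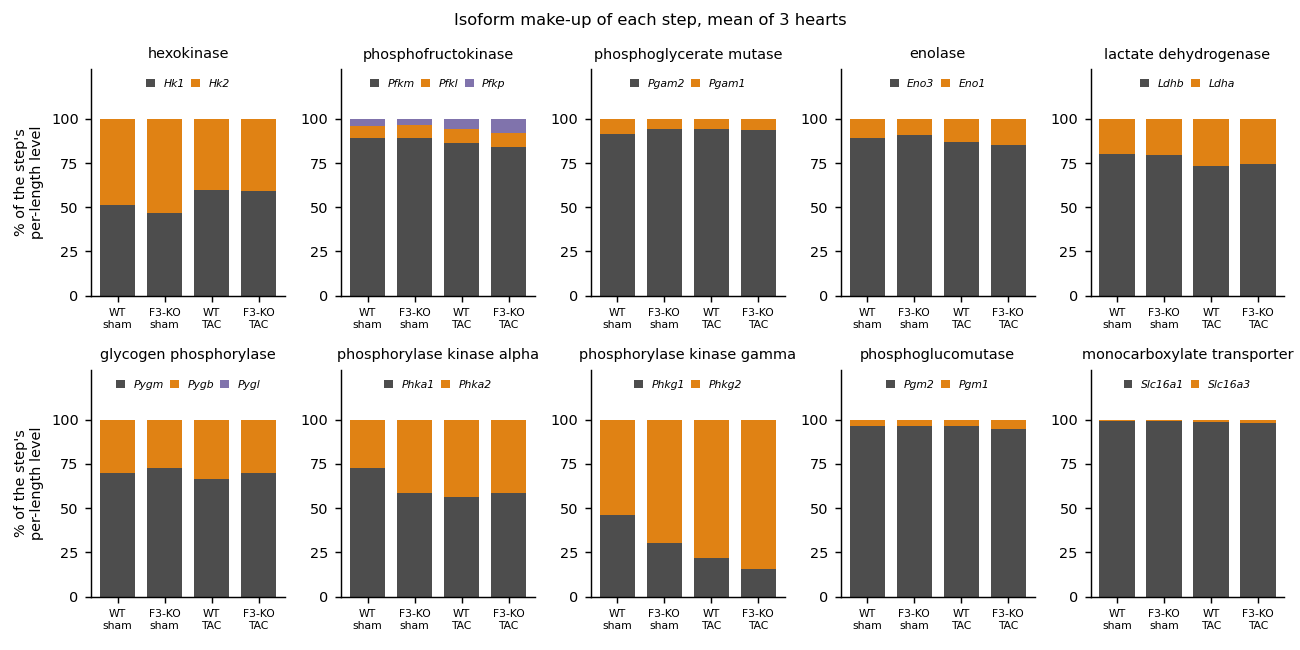
Share of each isoform in the summed CPM per kilobase of its step, in percent, as the mean of the 3 hearts of each group. The dark segment is the gene named first in each panel, and the largest difference between groups is in phosphorylase kinase gamma, where *Phkg1* held 46.4% in WT sham and 15.4% in F3-KO TAC hearts.

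Whether surgery or genotype moved isoform choice was tested on the log2 ratio of the counts of 2 isoforms within each heart, in 13 pairs, with exact two-sided permutation tests that kept the other factor fixed. After TAC, 3 of 13 ratios rose, each from a muscle or heart isoform towards the other one: *Eno1*/*Eno3*, *Ldha*/*Ldhb* and *Phkg2*/*Phkg1*. Each had p = 0.005, the smallest that the 400 arrangements allow, and an adjusted p of 0.0433 over 26 exact permutation tests. A single ratio at this smallest p would not pass over 26 tests, so the 3 calls rest on each other. For these genes the RefSeq promoters (GRCm38.p6, from 250 bases before to 50 bases after a start) are printed here, together with that of *Ugp2*, whose F3-KO TAC level stood apart from the other groups. Where a gene has several starts, the one with the most motif matches is given, and of starts with equal numbers the one with the lowest coordinate. The other start of *Ugp2* held equally many matches, 1 of ACGTG and 1 of GGGCGG. Capitals mark ACGTG, the core bound by hypoxia-inducible factors, which also covers CACGTG, an E-box, and GGGCGG, a GC box, on either strand.
*Eno3* (chr11:70656926-70657225, plus strand): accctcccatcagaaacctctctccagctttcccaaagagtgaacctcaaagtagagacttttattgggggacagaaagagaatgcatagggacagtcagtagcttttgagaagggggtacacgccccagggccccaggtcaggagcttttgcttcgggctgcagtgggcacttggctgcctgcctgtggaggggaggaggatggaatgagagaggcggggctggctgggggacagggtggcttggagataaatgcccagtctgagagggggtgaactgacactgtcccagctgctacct
*Eno1* (chr4:150236947-150237246, plus strand): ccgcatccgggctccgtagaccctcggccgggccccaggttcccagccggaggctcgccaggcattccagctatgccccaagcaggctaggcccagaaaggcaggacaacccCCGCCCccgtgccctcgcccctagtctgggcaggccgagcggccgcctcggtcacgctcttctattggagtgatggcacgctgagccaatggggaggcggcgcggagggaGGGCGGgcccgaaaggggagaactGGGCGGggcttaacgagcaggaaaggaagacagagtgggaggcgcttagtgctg
*Ldhb* (chr6:142507908-142508207, minus strand): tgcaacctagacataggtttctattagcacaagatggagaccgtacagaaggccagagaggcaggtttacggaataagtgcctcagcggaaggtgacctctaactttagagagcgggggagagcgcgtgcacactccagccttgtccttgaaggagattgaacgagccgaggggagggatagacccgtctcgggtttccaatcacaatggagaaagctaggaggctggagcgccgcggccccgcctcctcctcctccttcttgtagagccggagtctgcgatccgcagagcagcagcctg
*Ldha* (chr7:46845554-46845853, plus strand): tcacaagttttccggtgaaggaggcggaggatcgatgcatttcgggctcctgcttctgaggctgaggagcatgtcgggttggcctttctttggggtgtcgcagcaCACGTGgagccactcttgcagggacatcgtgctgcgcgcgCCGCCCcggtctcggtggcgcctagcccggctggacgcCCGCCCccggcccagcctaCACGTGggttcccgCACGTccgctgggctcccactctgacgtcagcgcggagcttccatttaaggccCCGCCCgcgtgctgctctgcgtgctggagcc
*Phkg1* (chr5:129879039-129879338, minus strand): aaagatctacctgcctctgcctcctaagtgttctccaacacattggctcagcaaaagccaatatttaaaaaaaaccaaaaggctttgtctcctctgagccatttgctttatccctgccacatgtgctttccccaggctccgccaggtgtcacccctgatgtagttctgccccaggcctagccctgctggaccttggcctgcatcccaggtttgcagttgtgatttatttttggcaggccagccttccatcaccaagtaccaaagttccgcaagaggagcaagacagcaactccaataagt
*Phkg2* (chr7:127573098-127573397, plus strand): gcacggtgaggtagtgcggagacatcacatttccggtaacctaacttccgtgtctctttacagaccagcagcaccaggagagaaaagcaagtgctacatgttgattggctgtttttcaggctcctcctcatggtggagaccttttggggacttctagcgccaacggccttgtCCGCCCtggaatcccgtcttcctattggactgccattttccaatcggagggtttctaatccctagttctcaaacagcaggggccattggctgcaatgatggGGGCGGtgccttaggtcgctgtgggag
*Ugp2* (chr11:21370580-21370879, minus strand): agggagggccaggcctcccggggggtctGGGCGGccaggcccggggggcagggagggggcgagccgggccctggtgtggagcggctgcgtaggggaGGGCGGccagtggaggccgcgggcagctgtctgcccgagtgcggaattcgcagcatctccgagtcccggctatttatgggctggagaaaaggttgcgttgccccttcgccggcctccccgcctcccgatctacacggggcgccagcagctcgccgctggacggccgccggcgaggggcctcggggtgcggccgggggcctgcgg

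In each of the 3 pairs, matches stood in the printed start of the numerator gene of the ratio and not in the denominator gene. The choice of the start with the most matches favours genes with several starts. *Eno1* has 3 starts and *Ldha* 2, while *Eno3*, *Ldhb*, *Phkg1* and *Phkg2* have 1 each. The other start of *Ldha* and the *Eno1* start at chr4:150236458-150236757 held 0 matches. *Ldha* held 5 matches of ACGTG, counting both strands, 2 of CACGTG and 3 of GGGCGG. *Eno1* held 3 matches of GGGCGG and *Phkg2* 2, while *Eno3*, *Ldhb* and *Phkg1* held none of these. Over all 47 promoters of the 35 genes, ACGTG was found in 22, or 46.8%, against 19.6% of 32851 mouse promoters of the same length. CACGTG was found in 10.6% against 7.15%, and GGGCGG in 59.6% against 35.7%. TATAAA and the MEF2 site were each found in 1 of 47 promoters, against 13.6% and 3.19% of all promoters. Starts of 1 gene can overlap, and a match is a run of letters, not a bound site.

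Enolase carries out the step before pyruvate kinase. The log2 ratio of *Eno1* to *Eno3* was -3.03, -2.58 and -2.44 in WT sham and -2.31, -2.40 and -2.29 in WT TAC hearts. It was -2.76, -2.88 and -3.07 in F3-KO sham and -2.38, -1.64 and -2.60 in F3-KO TAC hearts. All 3 TAC hearts lay above all 3 sham hearts in both genotypes, with a mean difference of 0.52, made of 0.35 in WT and 0.69 in F3-KO hearts. Of the levels behind it, *Eno1* had a log2 fold change of 0.37 ± 0.17 (SE) in WT and -0.14 in F3-KO hearts, and *Eno3* of 0.03 and -0.84 ± 0.18, none of which passed the test over all genes.

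Lactate dehydrogenase is a tetramer of LDHB, favouring lactate oxidation, and LDHA, favouring lactate formation. The log2 ratio of *Ldha* to *Ldhb* was -1.66, -1.64 and -1.43 in WT sham and -0.56, -1.22 and -1.35 in WT TAC hearts. In F3-KO hearts it was -1.46, -1.61 and -1.55 after sham and -1.15, -0.76 and -1.42 after TAC. Groups again did not overlap in either genotype, though the nearest hearts lay close, and the mean difference was 0.48, with 0.53 in WT and 0.43 in F3-KO hearts. As a share of the per-length level, *Ldha* held 19.9% ± 1.42 in WT sham, 26.6% ± 5.86 in WT TAC, 20.3% ± 0.878 in F3-KO sham and 25.7% ± 4.44 in F3-KO TAC hearts.

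Phosphorylase kinase has a catalytic gamma subunit, encoded by *Phkg1* in muscle and by *Phkg2* in liver and other tissues. The log2 ratio of *Phkg2* to *Phkg1* was -0.52, 0.17 and -0.11 in WT sham and 1.41, 0.83 and 2.34 in WT TAC hearts. It was 0.70, 1.68 and 0.30 in F3-KO sham and 1.80, 2.44 and 2.07 in F3-KO TAC hearts. The mean difference with surgery was 1.45, with 1.68 in WT and 1.21 in F3-KO hearts and no overlap in either. With genotype it was 0.81 (p = 0.035, exact permutation test, adjusted p = 0.149), which did not pass.

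**Figure D3:**
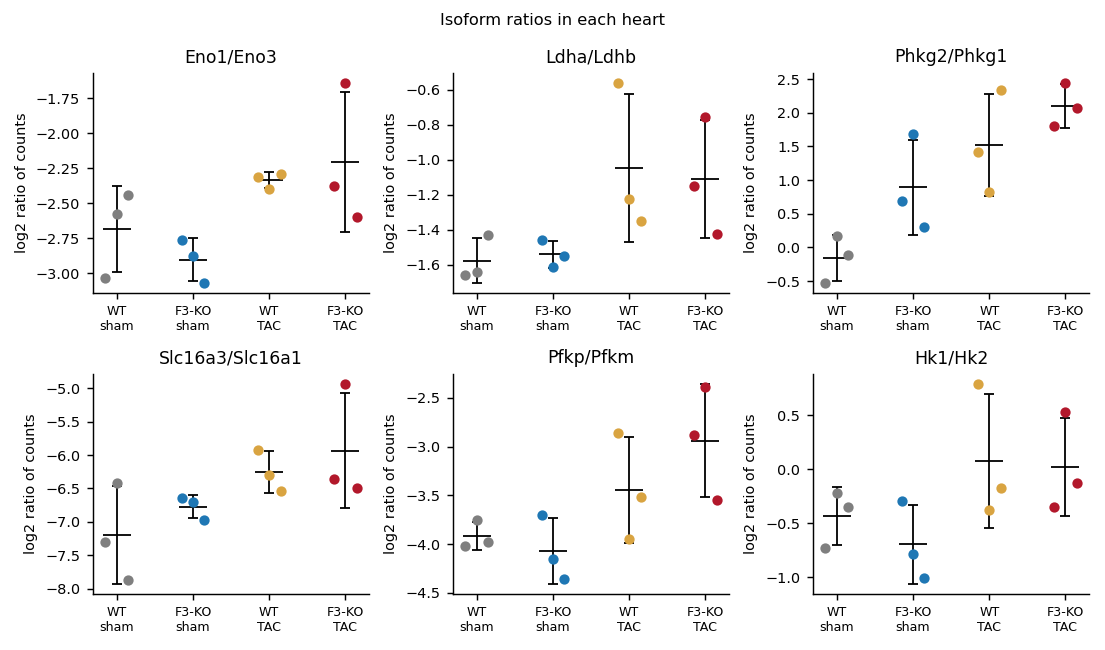
Log2 ratio of the counts of 2 isoforms in each of the 12 hearts (points), with the mean and SD of each group (black bar and whiskers), for the 3 ratios that passed the test of surgery (top row) and the 3 with the next smallest p-values (bottom row). In the top row every TAC heart lies above every sham heart of its genotype.

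The other 10 ratios did not pass for surgery, and 0 of 13 passed for genotype, where 1 had an unadjusted p under 0.05 in the exact permutation test. Over both sets, 10 of 13 differences with surgery and 7 of 13 with genotype were above 0. Not all pairs have the less abundant isoform first, as in *Pgm2*/*Pgm1*, and some pairs share *Pfkm* or *Pygm*. The counts are therefore no measure of a general shift. Nearest to the threshold for surgery were *Slc16a3*/*Slc16a1* (0.89, adjusted p = 0.065), *Pfkp*/*Pfkm* (0.80, adjusted p = 0.078) and *Hk1*/*Hk2* (0.61, adjusted p = 0.149), all exact permutation tests. *Pygb*/*Pygm* differed by 0.19 with surgery and -0.21 with genotype, and *Pgam1*/*Pgam2* by -0.20 and -0.23.

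The hearts with the highest fibroblast sums had the highest ratios in some cases and not in others. WT TAC replicate 1 had the highest WT value of *Ldha*/*Ldhb*. F3-KO TAC replicate 2 had the highest values of *Eno1*/*Eno3* and *Phkg2*/*Phkg1* of all 12 hearts. Among WT hearts the highest *Eno1*/*Eno3* (-2.29) and *Phkg2*/*Phkg1* (2.34) were in WT TAC replicate 3, with a fibroblast sum of 1370 CPM. F3-KO TAC replicate 1, with 4420 CPM, lay between the other hearts of its group in *Eno1*/*Eno3* and *Ldha*/*Ldhb*. It was the lowest of its group in *Phkg2*/*Phkg1* (1.80). Cardiomyocyte markers summed to 69600 to 89200 CPM in WT sham, 73700 to 104000 in WT TAC, 89200 to 99400 in F3-KO sham and 61900 to 76700 CPM in F3-KO TAC hearts, so these 2 F3-KO groups did not overlap. The part of cell make-up in the ratios was not tested. In WT hearts, where *Alb* was at 0 throughout, the 3 differences were 0.35, 0.53 and 1.68. Without both F3-KO TAC hearts that held *Alb*, they were 0.44, 0.46 and 1.295. This leaves F3-KO TAC replicate 1 alone in its group and cuts the number of arrangements, so calls could not be judged in this setting. With 1 heart left out at a time, 0 to 6 ratios passed, and 0 in 8 of the 12 tests.

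Single genes were compared with edgeR's quasi-likelihood test over all 14094 genes tested. None of the 34 tested genes of the pathway passed an adjusted p of 0.05 in any of 7 contrasts, so each value is given with its adjusted p. With TAC in WT hearts, 0 of 34 passed, where 0% of all genes did, and 5 of 34 (14.7%) had an unadjusted p under 0.05, against 6.28% of all genes. DESeq2 called 1 of them, *Phka1*, and limma-trend 0. The median log2 fold change of the 34 was 0.05, against 0 over all genes, and 22 lay above 0, where 50% of all genes did.

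**Figure D4:**
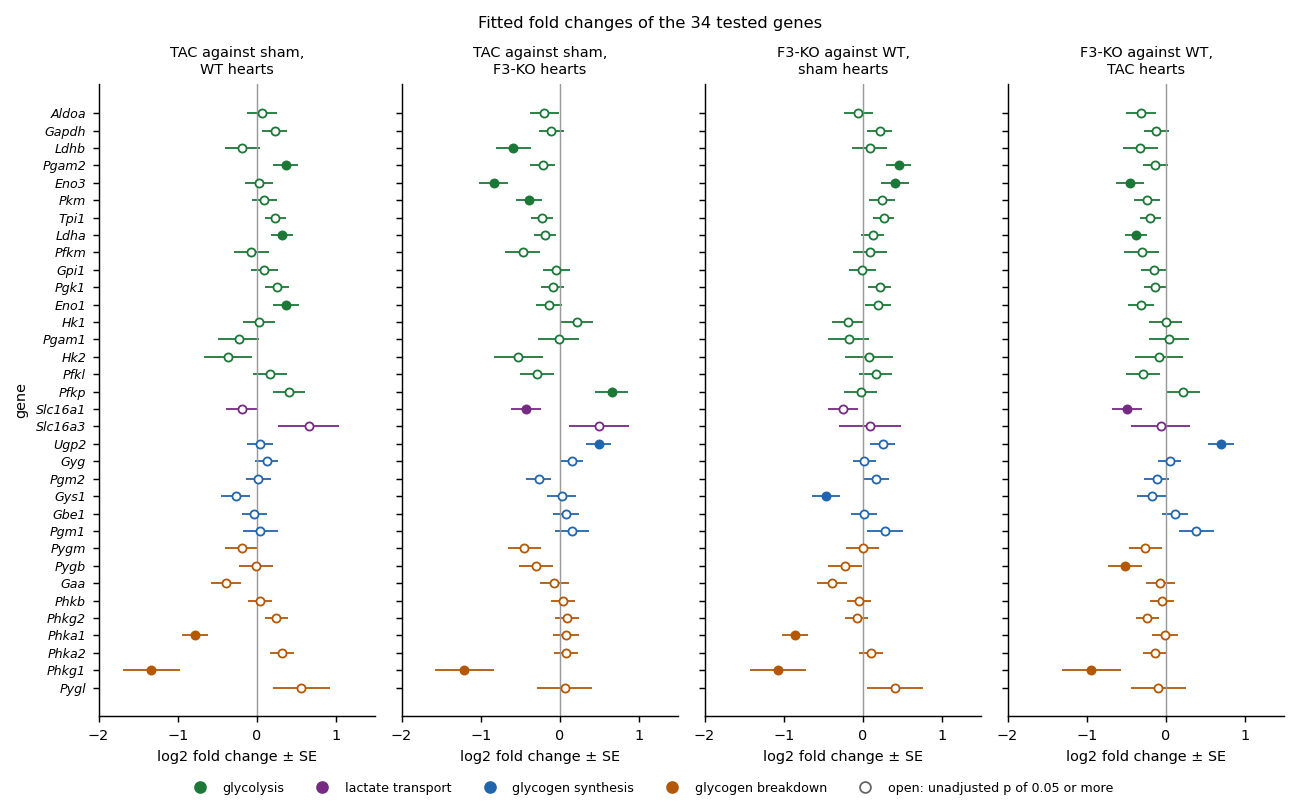
Fitted log2 fold change with its standard error for the 34 tested genes in 4 comparisons, coloured by their part of the pathway, with filled points for an unadjusted p under 0.05. No gene passed the adjusted threshold, and *Phkg1* lies furthest left in every panel.

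With TAC in WT hearts, the 3 nominal differences upwards were in late glycolysis and the 2 downwards in phosphorylase kinase. *Pgam2* stood at 570.0, 490.5 and 560.0 CPM in WT sham and at 642.5, 750.7 and 692.2 CPM in WT TAC hearts, without overlap (log2 fold change 0.36, adjusted p = 0.782 in edgeR). *Ldha* stood at 615.0, 594.2 and 652.9 CPM after sham and at 794.4, 736.3 and 785.7 CPM after TAC (0.31, adjusted p = 0.782 in edgeR). *Eno1* had a difference of 0.37 (adjusted p = 0.782 in edgeR). *Tpi1* and *Gapdh* also had WT TAC hearts above all WT sham hearts, and with *Gaa*, *Phka1* and *Phkg1* below, groups did not overlap in 8 of 34 genes (23.5%), 5 higher and 3 lower, against 9.1% of all genes (4.67% higher and 4.43% lower).

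With TAC in F3-KO hearts, most glycolysis genes had values below 0. Again 0 of 34 passed, where 0% of all genes did, and 7 (20.6%) had an unadjusted p under 0.05, against 17.1% of all genes, so the share of the pathway lay near the background. DESeq2 called 1, *Eno3*, and limma-trend 0. Of 17 glycolytic genes 15 had a log2 fold change below 0, with a median of -0.20 against 0.02 over all genes, of which 52.9% lay above 0. Groups did not overlap in 11 of 34 genes (32.4%), 2 higher and 9 lower, against 22.9% of all genes (11.5% higher and 11.4% lower).

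*Eno3* had the smallest p of the glycolytic genes in this comparison. It stood at 1511, 1330 and 1636 CPM in F3-KO sham and at 930.6, 684.6 and 891.9 CPM in F3-KO TAC hearts, a log2 fold change of -0.84 ± 0.18 (SE; adjusted p = 0.172 in edgeR). In WT hearts it stood at 1277, 1015 and 1075 CPM after sham and at 1013, 1364 and 1051 CPM after TAC, with overlap. *Ldhb* was at 1904, 1813 and 2173 CPM in F3-KO sham and at 1129, 1090 and 1691 CPM in F3-KO TAC hearts (-0.59, adjusted p = 0.218 in edgeR). *Pkm*, pyruvate kinase, had a difference of -0.39 (adjusted p = 0.256) and *Slc16a1* of -0.43 (adjusted p = 0.282), both in edgeR.

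*Pfkp*, the platelet-type phosphofructokinase, had a difference of the opposite sign. It stood at 82.8, 61.8 and 58.5 CPM in F3-KO sham and at 93.7, 139.7 and 86.4 CPM in F3-KO TAC hearts (0.66 ± 0.20, adjusted p = 0.184 in edgeR). In WT hearts it stood at 66.9, 61.2 and 79.0 CPM after sham and at 101.8, 74.9 and 97.4 CPM after TAC (0.40), with overlap. *Pfkp* shares exon sequence with *Pitrm1* on the opposite strand, which had group means of 71.1 to 80.9 CPM. The muscle form *Pfkm* had a difference of -0.47 in F3-KO hearts (adjusted p = 0.295 in edgeR) and of -0.07 in WT hearts.

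Hexokinase traps glucose in the cell at the start of the pathway. *Hk2* stood at 328.2, 240.1 and 392.1 CPM in WT sham and at 121.3, 340.4 and 284.8 CPM in WT TAC hearts (log2 fold change -0.36 ± 0.31, adjusted p = 0.863 in edgeR). In F3-KO hearts it was at 282.8, 357.8 and 371.5 CPM after sham and at 244.2, 208.0 and 252.1 CPM after TAC, without overlap (-0.52, adjusted p = 0.407 in edgeR). *Hk1*, *Gpi1*, the isomerase after hexokinase, *Pfkl*, the liver phosphofructokinase, *Aldoa*, *Gapdh*, *Pgk1*, phosphoglycerate kinase, and *Pgam1*, the ubiquitous mutase, had no unadjusted p under 0.05 in any of the 7 contrasts. *Tpi1*, triose phosphate isomerase, had the smallest spread of the tested members (biological coefficient of variation 0.133) and in WT hearts stood at 687.8, 602.2 and 680.2 CPM after sham and 719.8, 785.6 and 810.3 CPM after TAC. In F3-KO hearts it stood at 783.1, 777.0 and 806.0 CPM after sham and 586.5, 685.9 and 750.4 CPM after TAC. WT sham hearts lay below WT TAC and F3-KO sham hearts, and F3-KO TAC hearts below F3-KO sham hearts, each without overlap.

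Lactate transport rested on *Slc16a1*. It stood at 330.1, 378.9 and 467.2 CPM in WT sham and at 263.5, 406.4 and 359.4 CPM in WT TAC hearts, and at 304.5, 345.7 and 337.6 CPM in F3-KO sham and 277.9, 198.4 and 257.2 CPM in F3-KO TAC hearts. F3-KO TAC hearts lay below F3-KO sham hearts without overlap and overlapped with WT TAC replicate 1 (against WT TAC -0.49, adjusted p = 0.474 in edgeR). *Slc16a3*, which exports lactate from glycolytic cells, stood at 1.96 to 6.44 CPM over the 12 hearts, and its difference with TAC averaged over genotypes was 0.58 (adjusted p = 0.290 in edgeR).

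Averaged over genotypes, TAC against sham gave 0 calls of 34, where 0.078% of all genes were called, and 7 genes (20.6%) with an unadjusted p under 0.05, against 17.8% of all genes. DESeq2 called 3 of them, *Pfkp* higher and *Eno3* and *Phkg1* lower, and limma-trend 0. *Phkg1* came nearest in edgeR (log2 fold change -1.27 ± 0.26, adjusted p = 0.0880), followed by *Pfkp* (0.53 ± 0.14, adjusted p = 0.114) and *Eno3* (-0.41 ± 0.13, adjusted p = 0.150).

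The knockout was compared with WT within each operation, and these contrasts share the hearts of those above. In sham hearts 0 of 34 genes passed, where 0.106% of all genes did, and 5 (14.7%) had an unadjusted p under 0.05, against 6.02% of all genes. DESeq2 called 1, *Phka1*, and limma-trend 0. Of the 17 glycolytic genes, 12 lay above 0, where 49.2% of all genes did. *Pgam2* stood at 788.1, 667.4 and 761.4 CPM in F3-KO sham hearts, above all 3 WT sham hearts (0.45, adjusted p = 0.610 in edgeR), and *Eno3* had a difference of 0.41 (adjusted p = 0.821). Groups did not overlap in 7 of 34 genes (20.6%), 3 higher and 4 lower, against 13.7% of all genes (6.78% higher and 6.92% lower).

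In TAC hearts 0 of 34 genes passed between F3-KO and WT, where 0.078% of all genes did, and 6 (17.6%) had an unadjusted p under 0.05, against 10% of all genes. DESeq2 called 1, *Ugp2*, and limma-trend 0. The log2 fold change lay below 0 for 28 of 34 genes, among them 15 of 17 in glycolysis and 9 of 9 in glycogen breakdown, while 53.1% of all genes lay above 0. *Ldha* stood at 509.7, 644.5 and 630.4 CPM in F3-KO TAC hearts, below the 3 WT TAC hearts (-0.38, adjusted p = 0.473 in edgeR). Groups did not overlap in 4 genes (11.8%), 1 higher and 3 lower, near the 11.4% of all genes (6.3% higher and 5.1% lower). Cardiomyocyte sums were 61900 to 76700 CPM in F3-KO TAC and 73700 to 104000 CPM in WT TAC hearts, and their part in the lower levels was not tested.

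The difference of the TAC effect between genotypes (interaction) gave 0 calls of 34, where 0% of all genes were called, with DESeq2 and limma-trend also at 0. An unadjusted p under 0.05 was found for 5 genes (14.7%), against 4.48% of all genes. These were *Phka1* (0.86 ± 0.23) upwards and *Eno3* (-0.86 ± 0.25), *Pgam2* (-0.58), *Ldha* (-0.50) and *Tpi1* (-0.46) downwards, each with an adjusted p of 0.954 in edgeR. Of 17 glycolytic genes 14 lay below 0, with a median of -0.40 against 0.03 over all genes, of which 54.2% lay above 0.

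In glycogen synthesis 2 of 6 genes, *Ugp2* and *Gys1*, had an unadjusted p under 0.05 in some contrast. In single contrasts 4.48% to 17.8% of all genes did, and their share over any of the 7 contrasts was not counted. *Ugp2*, which makes UDP-glucose for glycogen and glycoproteins, stood at 529.1, 494.6 and 632.1 CPM in F3-KO TAC hearts, and between 295 and 429 CPM in the other 9 hearts. Against WT TAC hearts the log2 fold change was 0.70 ± 0.16 (adjusted p = 0.247 in edgeR and 0.00417 in DESeq2), and against F3-KO sham hearts 0.49 ± 0.16 (adjusted p = 0.187 in edgeR). An annotated transcript on the opposite strand overlaps *Ugp2* and is not a row of the count table, so the 2 cannot be separated if counting ignored strand.

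*Gys1*, the muscle glycogen synthase, stood at 190.8, 169.6 and 272.7 CPM in WT sham and at 148.2, 156.5 and 153.2 CPM in F3-KO sham hearts, without overlap (-0.47, adjusted p = 0.715 in edgeR). In TAC hearts it was at 178.2, 168.0 and 180.2 CPM in WT and at 127.2, 151.2 and 186.8 CPM in F3-KO, with overlap. *Gbe1*, the branching enzyme, had group means of 56.2 to 61.0 CPM, and *Gyg*, glycogenin, which primes a new glycogen particle, of 220.2 to 248.3 CPM. These 2 genes and both phosphoglucomutases had no unadjusted p under 0.05 in any of the 7 contrasts.

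Glycogen breakdown held the widest differences, in the muscle subunits of phosphorylase kinase. In WT hearts *Phkg1* stood at 26.4, 16.6 and 22.3 CPM after sham and at 10, 11.6 and 4.10 CPM after TAC. In F3-KO hearts it stood at 11.6, 5.97 and 13.5 CPM after sham and at 4.71, 3.89 and 4.87 CPM after TAC. WT sham hearts lay above all 9 others, and F3-KO TAC hearts overlapped with WT TAC replicate 3 alone. Log2 fold changes were -1.33 ± 0.36 with TAC in WT (adjusted p = 0.760), -1.21 ± 0.37 with TAC in F3-KO (adjusted p = 0.182), -1.07 ± 0.35 for F3-KO in sham (adjusted p = 0.571) and -0.95 ± 0.37 for F3-KO in TAC hearts (adjusted p = 0.474), all in edgeR. *Phkg1* had a ratio of highest to lowest heart of 6.79, the widest of the 34, whose median was 1.80.

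The level of *Phkg1* was low, with a mean of 4.762 CPM per kilobase, and its exons overlap those of *Sumf2* on the opposite strand, listed at 0 to 3.89 CPM in these hearts. *Phkg2* had group means of 18.2 to 22.8 CPM and no unadjusted p under 0.05. In the shares per length, *Phkg1* held 46.4% ± 5.98 in WT sham, 22% ± 8.58 in WT TAC, 30.1% ± 9.80 in F3-KO sham and 15.4% ± 2.85 in F3-KO TAC hearts.

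*Phka1*, the muscle form of the regulatory alpha subunit, separated WT sham hearts from all others. It stood at 58.5, 97.9 and 93.4 CPM in WT sham hearts and between 43.1 and 51.0 CPM in the other 9 hearts. The log2 fold change was -0.78 ± 0.16 with TAC in WT hearts (adjusted p = 0.493 in edgeR and 0.0148 in DESeq2) and -0.86 ± 0.16 for F3-KO in sham hearts (adjusted p = 0.0881 in edgeR and 0.000949 in DESeq2), and both contrasts rest on the same 3 WT sham hearts. Without WT sham replicate 1, the lowest of them, the differences were -0.98 and -1.06 with adjusted p of 0.0408 and 0.00931 in edgeR. After TAC the genotypes did not separate, with 50.5, 48.4 and 46.6 CPM in WT and 51.0, 46.8 and 47.3 CPM in F3-KO hearts. *Phka2*, the liver form, and *Phkb*, the shared beta subunit, had no unadjusted p under 0.05.

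**Figure D5:**
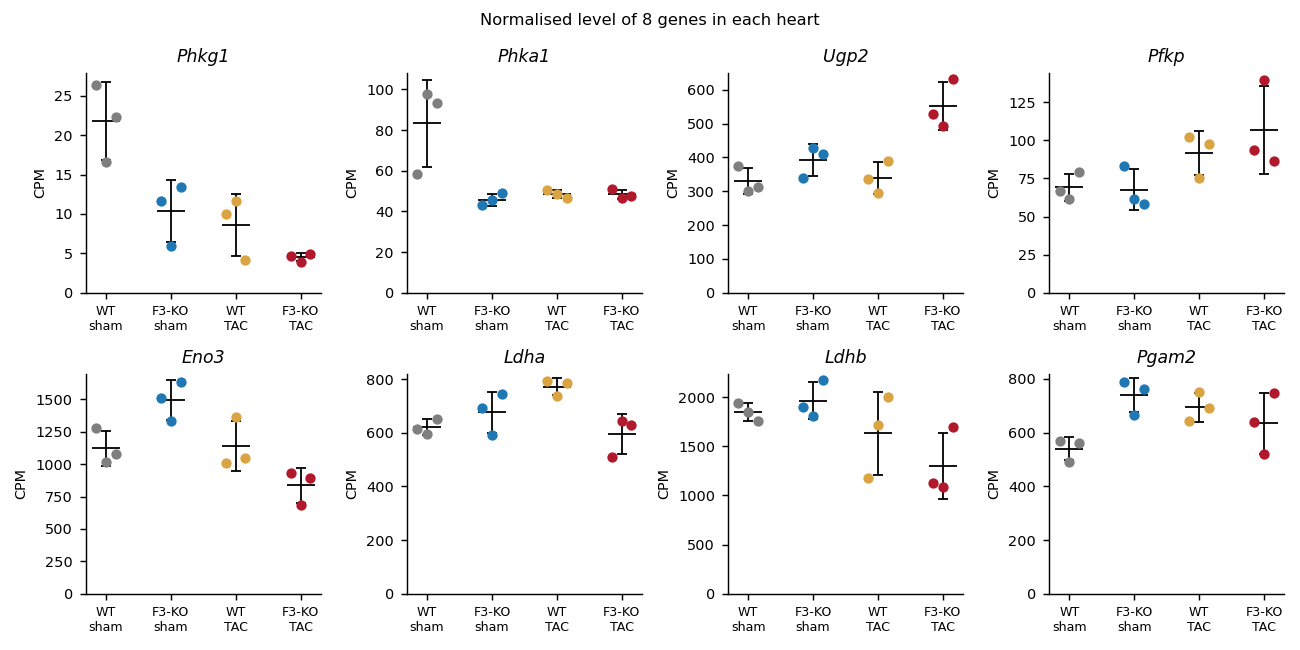
Normalised level in CPM of 8 genes in each of the 12 hearts (points), with the mean and SD of each group (black bar and whiskers) and axes that start at 0. WT sham hearts stand above the other groups for *Phkg1* and *Phka1*, and F3-KO TAC hearts above them for *Ugp2*.

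Of the phosphorylases, *Pygb* stood at 637.3, 639.3 and 745.3 CPM in F3-KO TAC and at 1174, 847.3 and 869.9 CPM in WT TAC hearts, without overlap (-0.52, adjusted p = 0.474 in edgeR). *Pygm* stood at 1570, 1576 and 1756 CPM in F3-KO sham and at 1011, 989.3 and 1593 CPM in F3-KO TAC hearts, where replicate 3 lay within the sham range. Without that heart *Pygm*, *Eno3* and *Ldhb* passed as lower with TAC in F3-KO hearts (-0.71, -0.89 and -0.83, adjusted p of 0.0489, 0.0383 and 0.0489 in edgeR), in a fit that called 778 genes in place of 0. *Gaa*, the lysosomal alpha-glucosidase that breaks glycogen down outside the phosphorylase route, had -0.39 both with TAC in WT hearts and for F3-KO in sham hearts, with WT sham hearts above both groups and adjusted p of 0.782 and 0.862 in edgeR.

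Averaged over operations, F3-KO against WT gave 0 calls of 34, where 0.412% of all genes were called, and 6 genes (17.6%) with an unadjusted p under 0.05, against 10.1% of all genes. DESeq2 called 3, *Ugp2* higher and *Phka1* and *Phkg1* lower, and limma-trend 0. In edgeR, *Ugp2* had 0.47 ± 0.11 (adjusted p = 0.158) and *Phkg1* -1.01 ± 0.26 (adjusted p = 0.184). None of the 17 glycolytic genes had an unadjusted p under 0.05 here, with log2 fold changes between -0.18 and 0.16.

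Other genes of these pathways were taken from lists. Of 18 tested genes of glycolysis and gluconeogenesis outside the 35, an unadjusted p under 0.05 was found for 1 with TAC in WT hearts, 7 with TAC in F3-KO hearts, 3 for F3-KO in sham hearts and 7 for F3-KO in TAC hearts. Over all genes the shares were 6.28%, 17.1%, 6.02% and 10%, in the same order (edgeR). Of 16 other tested glycogen genes and 16 tested regulators, such as *Hif1a* and *Mlxipl*, 0 passed in edgeR in any contrast, with up to 3 of 16 in each list at an unadjusted p under 0.05. Both lists reached 3 with TAC in F3-KO hearts and with TAC averaged over genotypes, where 17.1% and 17.8% of all genes did so.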

How the data were processed

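RNA of 12 hearts was sequenced and reads were filtered with SOAPnuke. The submitters' processing notes list HISAT2 2.0.4, STAR 2.3.0 and DESeq2, with mm8 and mm9 as builds, without a role for each. The deposited values are estimated counts per gene, not normalised by the authors, and 40.6% of them were not whole. The counting program, its use of strand and its treatment of multi-mapping reads are not given in the sources used here, so levels of members with near-identical pseudogenes (*Gapdh*, *Aldoa*, *Eno1*, *Ldha*, *Pgam1*, *Tpi1*) are uncertain, and 14 of 35 members share exon sequence with another annotated gene.

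Counts were rounded and tested with edgeR 4.0.16 in R 4.3.3 (TMM factors 0.931 to 1.09, genes kept at a minimum count of 10, 14094 of 19308 genes, quasi-likelihood test, 1 model of 4 groups, 8 residual degrees of freedom, Benjamini-Hochberg adjustment over all genes, threshold 0.05). Levels between genes were compared as CPM divided by the length of the principal GENCODE transcript. Isoform ratios (0.5 added to each count) were compared by exact two-sided permutation over 400 arrangements, with adjustment over 26 tests. Alternatives were DESeq2 1.42.0, limma-trend 3.58.1, other size factors and filters, a replicate block, fits of the hearts compared alone, each heart left out, and, added after seeing the data, both hearts with hepatocyte markers left out. The scripts were tested on simulated data. All 35 members were named by symbol, and of the other pathway genes and regulators only *Hif1a* and *Mlxipl*, as examples. Calls among the other glycolysis and gluconeogenesis genes are not reported here. The members and lists were chosen with earlier results of these data known. Replicates differed beyond sampling noise in every group. Labels call them biological replicates and do not say whether their numbers mark a shared litter or day. Of the single-heart tables, 11 equalled the joint table, and that of 1 WT sham heart breaks off and was not used.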

Additional observations from a re-analysis of the deposited data

Results flagged for a closer look

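In 7 genes, all 3 hearts of a group lay on one side of the mean of the group they were compared with, and all 3 hearts of the parallel group on the other side, under the same contrast. The share of all genes that meets this rule was not counted, so the 7 cannot be set against a background. Each value is a difference of 2 differences in mean log2 CPM, the second minus the first, and the fitted interaction of each gene had an adjusted p of 0.954 (edgeR), so none of these differences passed.

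For F3-KO against WT, the difference in TAC hearts minus that in sham hearts was -0.86 for *Eno3* (0.41 in sham and -0.45 in TAC hearts), -0.52 for *Eno1* (0.20 and -0.32), -0.48 for *Pkm* (0.25 and -0.23), -0.47 for *Tpi1* (0.27 and -0.20) and -0.37 for *Pgk1* (0.23 and -0.14). These 5 genes lay higher in F3-KO than in WT hearts after sham and lower after TAC.

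For TAC against sham, the difference in F3-KO hearts minus that in WT hearts was -0.50 for *Ldha* (0.32 in WT and -0.19 in F3-KO hearts) and -0.47 for *Tpi1* (0.23 and -0.23). For *Phka1* it was 0.82, from -0.74 in WT and 0.08 in F3-KO hearts. Cardiomyocyte marker sums also stood lower in F3-KO TAC than in F3-KO sham hearts, and their part in these values was not tested.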

How the results depend on the processing

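The number of genes called stayed at 0 in all 7 contrasts under limma-trend, other size factors, other filters and with both F3-KO TAC hearts with *Alb* left out, and in the 4 comparisons of 2 groups when only the hearts compared were fitted. DESeq2 called 1 gene with TAC in WT, 1 with TAC in F3-KO, 1 for F3-KO in sham and 1 for F3-KO in TAC hearts, 3 with TAC averaged over genotypes and 3 for F3-KO averaged over surgeries, in fits that called 26, 442, 102, 94, 613 and 217 of all genes against 0, 0, 15, 11, 11 and 58 in edgeR. With 1 heart left out, the genes called ranged from 0 to 1 with TAC in WT, 0 to 3 with TAC in F3-KO, 0 to 1 in sham F3-KO against WT, 0 to 2 with TAC averaged and 0 to 1 for F3-KO averaged. WT sham replicate 1 (*Phka1*, 3 contrasts) and F3-KO TAC replicate 3 (*Eno3*, *Ldhb*, *Pygm*, *Pfkp*, *Phkg1*) were the hearts whose removal gave calls. No value that passed in either of the fits compared changed sign. Of the values that did not pass, many did under some alternative, 87 of 238 fold changes and 6 of 26 ratio differences in all.

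Isoform ratios that passed for surgery numbered 3, and ranged from 0 to 6 with 1 heart left out, 6 when F3-KO TAC replicate 3 was left out and 0 without WT sham replicates 1 or 3, any F3-KO sham heart, WT TAC replicate 1 or F3-KO TAC replicates 1 or 2. For genotype they ranged from 0 to 1 (*Phkg2*/*Phkg1*, 1.01, without WT TAC replicate 3). The differences ran from 0.38 to 0.62 for *Eno1*/*Eno3*, 0.36 to 0.56 for *Ldha*/*Ldhb* and 1.245 to 1.64 for *Phkg2*/*Phkg1*. In 8 of 12 such tests 0 ratios passed, and the same 3 did not pass in all of the rest. Without WT sham replicate 2, *Ldha*/*Ldhb* was lost (adjusted p = 0.104) and *Slc16a3*/*Slc16a1* gained (adjusted p = 0.0433, exact permutation tests). Without WT TAC replicate 3, 2 ratios passed. With both F3-KO TAC hearts with *Alb* left out, too few arrangements remain to judge calls. Same-numbered hearts of other groups had correlations of -0.141 to 0.362 (median 0.0372). Hearts of other groups with other numbers had -0.359 to 0.196 (median -0.0311). The ranges overlap, and whether the numbers mark a shared factor was not tested. With the replicate block 0 of 34 genes passed in every contrast and 3 ratios for surgery and 0 for genotype, with *Eno1*/*Eno3* lost (adjusted p = 0.078) and *Slc16a3*/*Slc16a1* gained (adjusted p = 0.0433, exact permutation tests). With 3 hearts a group, an exact permutation test within 1 genotype cannot go below p = 0.1.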
